A study of Mus musculus with 4 samples.

Results

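The nuclear genes for subunits of the mitochondrial respiratory chain were followed in neural stem cells with or without a Cre-based knockout of Seh1, a nuclear pore protein (Y complex) that also belongs to GATOR2, a regulator of mTORC1. Members were taken by mouse gene symbol: Nduf genes of the A, B, C, S and V series for complex I, Sdha to Sdhd for complex II, Uqcr genes for complex III, Cox4 to Cox8 genes for complex IV and Atp5 genes for complex V. The rule found 82 members among 17621 genes, with 36 in complex I, 4 in complex II, 8 in complex III, 17 in complex IV and 17 in complex V. RNA came from primary cultures grown from the cortex of newborn mice, in 4 libraries with 1 library in each group. The iKO cells carried floxed Seh1 alleles (Seh1 f/f) together with cmv-cre-ert, a CMV-driven recombinase of the inducible type, and the Ctrl cells carried the floxed alleles without it. The sources used here state neither an inducer treatment nor the number of mice behind a culture. Day 3 cells had been in medium without EGF and bFGF, which lets the cells differentiate, and day 0 cells were in growth medium with both factors.

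The chain passes electrons from NADH (complex I) and succinate (complex II) through ubiquinone, complex III and cytochrome c to oxygen at complex IV, and complex V, the ATP synthase, makes ATP from the proton gradient that results. Mitochondrial DNA encodes a few core subunits of complexes I, III, IV and V, and all other subunits are nuclear genes translated in the cytosol and imported. Neural stem cells are known for a largely glycolytic metabolism, with respiration gaining weight as neurons form. Mitochondrially encoded genes were not analysed here. Ndufa4 falls under the complex I symbols and is counted there, although its protein is now assigned to complex IV.

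Total expected counts were 19611788 for iKO and 19745921 for Ctrl at day 3, and 20625897 for iKO and 21040590 for Ctrl at day 0. Levels are in CPM (counts scaled to the library) after TMM scaling, and levels of different genes are compared only in the deposited FPKM, which is per length. A ratio is log2 of (CPM + 1) in the first group over (CPM + 1) in the second, which understates the ratio of low genes. Comparisons took in the 12976 genes that averaged 1 CPM or more, and 79 of the 82 members passed. Cox6a2, Cox4i2 and Cox7b2 did not. A gene counts as higher or lower when the ratio is at least 1.5-fold. With 1 library in a group there are no replicates behind any comparison and no p-values, and each 95% interval covers counting error only. Seh1l itself had 208 counts in iKO and 668 in Ctrl at day 3, a level 3.01-fold lower in iKO (2.58 to 3.54), and 419 counts in iKO and 820 in Ctrl at day 0, 2.10-fold lower (1.86 to 2.37). In bulk RNA, fewer cells of a type and less RNA per cell cannot be told apart.

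Promoter sequences were available for 68 members in RefSeq (GRCm38.p6), each from 250 bases before to 50 bases after the annotated start. They were searched on both strands for the NRF1 motif GCGCANGCG, the ETS motif bound by GABP, CCGGAAGT, and the YY1 motif AAGATGGCG, since these 3 factors are known regulators of respiratory genes. Shown are the promoters of Sdha, Atp5g3, Atp5g2 and Cox6b2. Sdha has the most NRF1 matches of the promoters shown (3). Atp5g3 and Atp5g2 are paralogous genes for ATP synthase subunit c that differed most within that set at day 3. Cox6b2, the member with the highest ratio at day 3, holds none. Capitals mark NRF1 matches on either strand.
Sdha (chr13:74350191-74350490, minus strand): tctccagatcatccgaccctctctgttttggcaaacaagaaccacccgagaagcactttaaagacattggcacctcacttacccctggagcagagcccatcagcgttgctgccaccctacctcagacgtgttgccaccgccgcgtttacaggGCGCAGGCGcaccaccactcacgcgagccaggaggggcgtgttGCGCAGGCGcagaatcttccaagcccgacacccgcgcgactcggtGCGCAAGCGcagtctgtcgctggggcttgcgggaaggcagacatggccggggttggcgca
Atp5g3 (chr2:73911277-73911576, minus strand): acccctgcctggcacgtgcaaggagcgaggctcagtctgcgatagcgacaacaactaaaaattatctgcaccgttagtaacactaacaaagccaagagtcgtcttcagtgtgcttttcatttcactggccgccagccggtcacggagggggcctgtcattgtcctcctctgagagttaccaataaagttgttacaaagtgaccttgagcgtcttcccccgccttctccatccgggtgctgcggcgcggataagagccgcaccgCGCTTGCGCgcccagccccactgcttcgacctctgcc
Atp5g2 (chr15:102670998-102671297, minus strand): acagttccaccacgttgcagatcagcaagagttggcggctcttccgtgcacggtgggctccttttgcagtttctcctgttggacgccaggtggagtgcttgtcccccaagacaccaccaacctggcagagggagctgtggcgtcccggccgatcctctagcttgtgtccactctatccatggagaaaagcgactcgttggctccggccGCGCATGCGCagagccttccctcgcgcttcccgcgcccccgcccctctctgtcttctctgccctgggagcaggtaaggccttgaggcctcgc
Cox6b2 (chr7:4753045-4753344, minus strand): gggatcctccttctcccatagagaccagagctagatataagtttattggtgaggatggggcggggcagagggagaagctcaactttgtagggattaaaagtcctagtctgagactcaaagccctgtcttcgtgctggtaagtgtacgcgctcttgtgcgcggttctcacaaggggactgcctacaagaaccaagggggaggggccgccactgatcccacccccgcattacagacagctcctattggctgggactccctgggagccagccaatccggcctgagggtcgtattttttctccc
In Sdha all 3 matches precede the annotated start, whereas the Atp5g3 match follows it, and the RefSeq start used for Atp5g3 lies inside the span annotated for the gene. The 2 matches in Atp5g2 are the same palindromic stretch read on both strands.

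Among the 68 promoters, 20 held the NRF1 motif (29.4%), beside 15.3% of 10349 promoters of measured genes and 7.03% of all 27025 promoters in the table. The YY1 motif was in 7 (10.3%), beside 3.5% and 1.64%, and the ETS motif in 5 (7.35%), beside 8.92% and 4.31%. By complex, the NRF1 motif was in 7 of 15 promoters of complex V, 8 of 32 of complex I, 2 of 5 of complex III, 2 of 3 of complex II and 1 of 13 of complex IV. The median iKO to Ctrl ratio at day 3 was 0.67 on the log2 scale for the 20 members with the motif and 0.64 for 47 measured members without it. Promoters with and without these letters therefore had nearly the same median. A match is a description of the letters and not of binding.

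Levels per length spanned a wide range. Atp5b, the catalytic beta subunit of ATP synthase, was the highest member, at 1036 FPKM in iKO and 555 FPKM in Ctrl at day 3 and 1167 FPKM in iKO and 1037 FPKM in Ctrl at day 0. Atp5a1, the alpha subunit, averaged 474 FPKM over the 4 libraries. In complex IV, Cox6a1 and Cox8a, the broadly expressed forms of subunits 6A and 8, averaged 630 and 614 FPKM. The leading complex I symbols were Ndufa4 (396 FPKM) and Ndufc2 (320 FPKM), a supernumerary subunit of the membrane arm. Sdhc, a membrane anchor (210 FPKM), and Sdha, the flavoprotein (141 FPKM), led complex II, and the small subunits Uqcr11 (236 FPKM) and Uqcr10 (216 FPKM) led complex III. The median member stood at 95.9 FPKM in complex I, 141 in complex II, 190 in complex III, 153 in complex IV and 249 in complex V.

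At day 3, 56 of the 79 members were at least 1.5-fold higher in iKO than in Ctrl, beside 15.1% of all genes. A ratio above 0 was found for 78 members, beside 48.7% of all genes. None (0) was at least 1.5-fold lower, beside 11.3% of all genes, and 4 were at least 2-fold higher (Cox6b2, Cox8b, Uqcr10 and Atp5g3), beside 6.27%. Cox8b and Cox7a1, both among the 56, passed the minimum level only through the iKO libraries, so their calls follow in part from that filter. The median ratio of the members was 0.66 on the log2 scale, and that of all genes was -0.01. Summed over the 82 members, iKO had 14693 CPM and Ctrl 8744 CPM, which is 1.68-fold higher in iKO (1.67 to 1.69). The members took 1.41% of the counts in iKO and 0.890% in Ctrl. Library totals in place of TMM lowered the number at least 1.5-fold higher to 39, with the median of all genes then at -0.09.

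**Figure D1:**
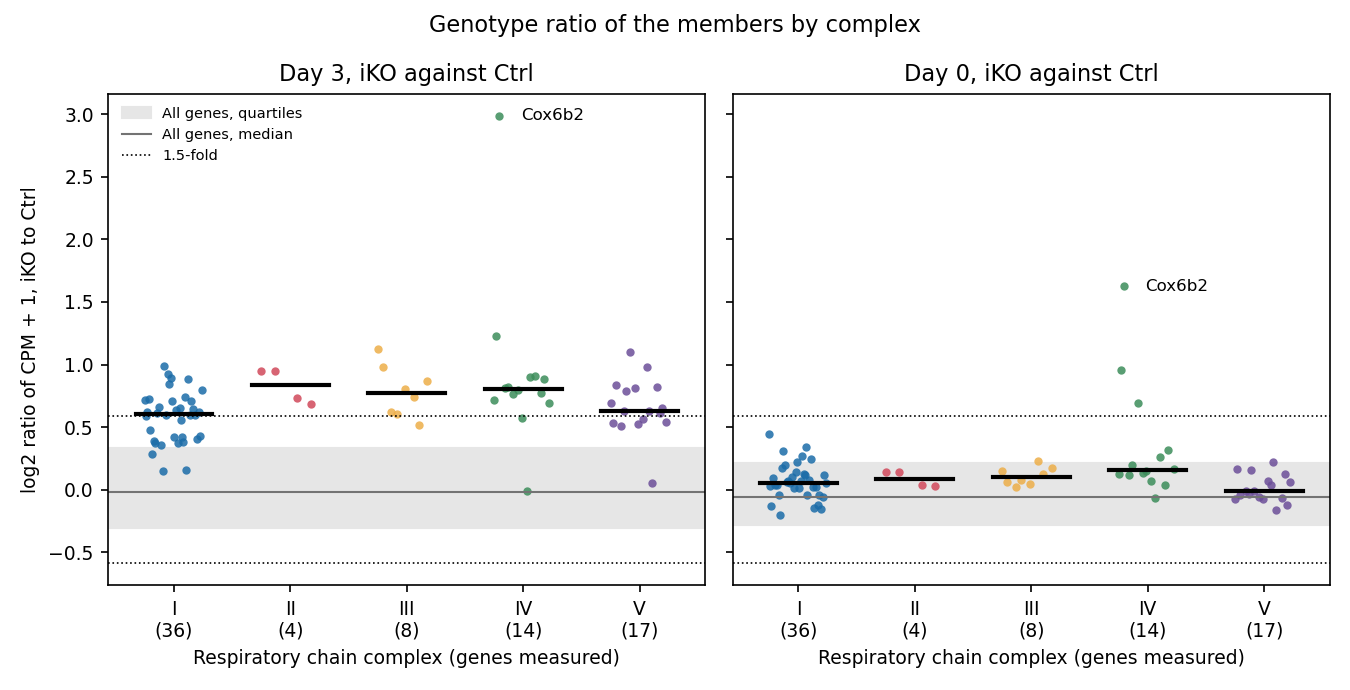
Each point is a member, placed by complex (x axis) and by its log2 ratio of CPM + 1 in iKO to Ctrl (y axis), at day 3 (left) and day 0 (right); thick bars are medians, the grey band spans the quartiles of all genes, the grey line is their median, and dotted lines mark 1.5-fold. At day 3 the medians of the 5 complexes lie between 0.60 and 0.84, and at day 0 between -0.01 and 0.16.

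All 5 complexes had a median above 0 at day 3. Beside the counts that follow, 15.1% of all genes were at least 1.5-fold higher in iKO. The median ratio was 0.84 in complex II, where all 4 genes were at least 1.5-fold higher, 0.81 in complex IV (12 of 14 measured), 0.77 in complex III (7 of 8), 0.63 in complex V (11 of 17) and 0.60 in complex I (22 of 36). The threshold ran through a dense stretch of values: Ndufv2, at a log2 ratio of 0.59, was just inside it and Cox6b1, at 0.57, just outside. Counts per complex therefore depend on small differences near 1.5-fold.

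In complex I the core subunits that carry the redox chemistry had a median ratio of 0.72 at day 3, with 6 of 7 at least 1.5-fold higher. The supernumerary subunits had a median of 0.60, with 16 of 29 higher. The share of all genes was 15.1%. With 7 core genes, the difference between the 2 sets was not tested. Ndufv1, which binds NADH and flavin, had 189.9 CPM in iKO and 99.5 CPM in Ctrl at day 3, and 138.0 CPM in iKO and 128.7 CPM in Ctrl at day 0. Its level was 1.91-fold higher in iKO at day 3 (1.81 to 2.02). Ndufs1, the largest core subunit and a carrier of iron-sulfur clusters, had 250.03 CPM in iKO and 134.6 CPM in Ctrl at day 3, against 148.2 CPM in iKO and 134.0 CPM in Ctrl at day 0. For Ndufs1 the Ctrl level was the same at both days within counting error, and the day 3 iKO library was the highest. At day 0 Ndufs1 was 1.11-fold higher in iKO than in Ctrl (1.05 to 1.16). Ndufa4 had 209.3 CPM in iKO and 104.8 CPM in Ctrl at day 3, a ratio of 0.99, and lay between 204.4 and 214.5 CPM in both day 0 libraries. Here the day 3 Ctrl library alone stood below the rest.

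The weakest complex I members at day 3 were Ndufs4, whose human counterpart is mutated in Leigh syndrome, and Ndufa3, a small membrane-arm subunit. Ndufs4 had 45.2 CPM in iKO and 40.6 CPM in Ctrl, 1.11-fold higher in iKO (1.01 to 1.22). Ndufa3 had 45.4 CPM in iKO and 40.7 CPM in Ctrl, 1.12-fold higher (1.01 to 1.23). Both intervals lie below the complex I median, which corresponds to about 1.5-fold.

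Complex II, the link between the chain and the tricarboxylic acid cycle, formed 2 pairs. Sdha had 606.1 CPM in iKO and 313.7 CPM in Ctrl at day 3, and 369.3 CPM in iKO and 335.6 CPM in Ctrl at day 0. Sdhc had 360.4 CPM in iKO and 185.9 CPM in Ctrl at day 3, and 220.4 CPM in iKO and 200.2 CPM in Ctrl at day 0. Both were highest in the day 3 iKO library, 1.93-fold (1.87 to 1.99) and 1.94-fold (1.86 to 2.02) above Ctrl, while the other 3 libraries lay close together. Sdhb, the iron-sulfur subunit, had 167.8 CPM in iKO and 100.8 CPM in Ctrl at day 3, and 160.5 CPM in iKO and 156.1 CPM in Ctrl at day 0. Sdhd, the other membrane anchor, had 100.2 CPM in iKO and 61.8 CPM in Ctrl at day 3, and 113.9 CPM in iKO and 111.6 CPM in Ctrl at day 0. For Sdhb and Sdhd the day 3 Ctrl library was the low value, and the folds at day 3 were 1.67 (1.57 to 1.76) and 1.62 (1.51 to 1.74).

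In complex III, Uqcr10, a small subunit, had 115.1 CPM in iKO and 52.3 CPM in Ctrl at day 3, and 99.7 CPM in iKO and 90.0 CPM in Ctrl at day 0. It was 2.20-fold higher in iKO at day 3 (2.04 to 2.37). Uqcrfs1, the Rieske iron-sulfur protein, had 221.2 CPM in iKO and 111.8 CPM in Ctrl at day 3, 1.98-fold higher (1.88 to 2.08), against 158.7 CPM in iKO and 152.0 CPM in Ctrl at day 0. The core protein Uqcrc1 was 1.83-fold (1.76 to 1.90) and Uqcrc2 1.75-fold (1.68 to 1.83) higher in iKO at day 3. The smallest difference was in Uqcrh, the hinge protein, at 1.44-fold (1.35 to 1.54). Uqcr10 and Uqcrh each overlap a predicted gene, and reads from the 2 cannot be told apart without strand.

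In complex V the medians of 3 parts of the enzyme lay close together at day 3. The median was 0.63 for the 5 genes of the F1 head, 0.61 for the 4 of the peripheral stalk and 0.63 for the 5 small membrane subunits. Single genes differed more, from 0.53 to 0.98 within the F1 head. The 3 genes for subunit c had a median of 0.84, with ratios from 0.05 to 1.10. Atp5b had 2014 CPM in iKO and 1018 CPM in Ctrl at day 3, 1.98-fold higher in iKO (1.94 to 2.01), and 2069 CPM in iKO and 2011 CPM in Ctrl at day 0. The day 3 Ctrl library was the low value and the other 3 lay within a narrow range.

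The 3 genes for subunit c, which encode the same mature ring protein with different import sequences, did not share a ratio at day 3. Atp5g3 had 314.5 CPM in iKO and 145.8 CPM in Ctrl, 2.16-fold higher in iKO (2.06 to 2.26). Atp5g1 had 105.0 CPM in iKO and 58.2 CPM in Ctrl, 1.80-fold higher (1.68 to 1.94). Atp5g2 had 188.3 CPM in iKO and 181.5 CPM in Ctrl, and its fold of 1.04 (0.990 to 1.09) includes no difference. Its log2 ratio of 0.05 became -0.03 on library totals. At day 0 the 3 genes had folds of 0.991 (Atp5g3), 0.970 (Atp5g1) and 0.893 (Atp5g2) in iKO over Ctrl. Of the summed subunit c FPKM, Atp5g3 made up 50.9% in iKO and 36.5% in Ctrl at day 3, and Atp5g2 33.9% in iKO and 50.6% in Ctrl. At day 0 the Atp5g3 share was 41.7% in iKO and 39.9% in Ctrl, and the Atp5g2 share 39.4% in iKO and 41.7% in Ctrl. Atp5g3 thus led in iKO and Atp5g2 in Ctrl at both days, with the shares closer together at day 0. These paralogs and their pseudogenes share sequence, and the sources used here do not state how reads were divided between near-identical copies.

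Complex IV held the member with the largest log2 ratio of CPM + 1 at both days, Cox6b2, known in mammals as the testis form of subunit 6B. It had 47.1 CPM in iKO and 5.07 CPM in Ctrl at day 3, and 49.7 CPM in iKO and 15.4 CPM in Ctrl at day 0. The iKO libraries were alike and both stood above both Ctrl libraries. Its level was 9.29-fold higher in iKO at day 3 (7.56 to 11.5) and 3.22-fold higher at day 0 (2.84 to 3.66). Per length, Cox6b2 stood at 89.4 FPKM in iKO and 10.2 FPKM in Ctrl at day 3 and 105 FPKM in iKO and 30.2 FPKM in Ctrl at day 0, beside Cox6b1, the common form, at 405 FPKM in iKO and 288 FPKM in Ctrl at day 3. The Cox6b2 share of both 6B genes was 18.1% in iKO and 3.43% in Ctrl at day 3, and 18.7% in iKO and 7.43% in Ctrl at day 0. Of its 5 deposited transcripts, the most abundant in the iKO libraries had 63.7 FPKM in iKO and 3.58 FPKM in Ctrl at day 3, and 63.8 FPKM in iKO and 14.1 FPKM in Ctrl at day 0.

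**Figure D2:**
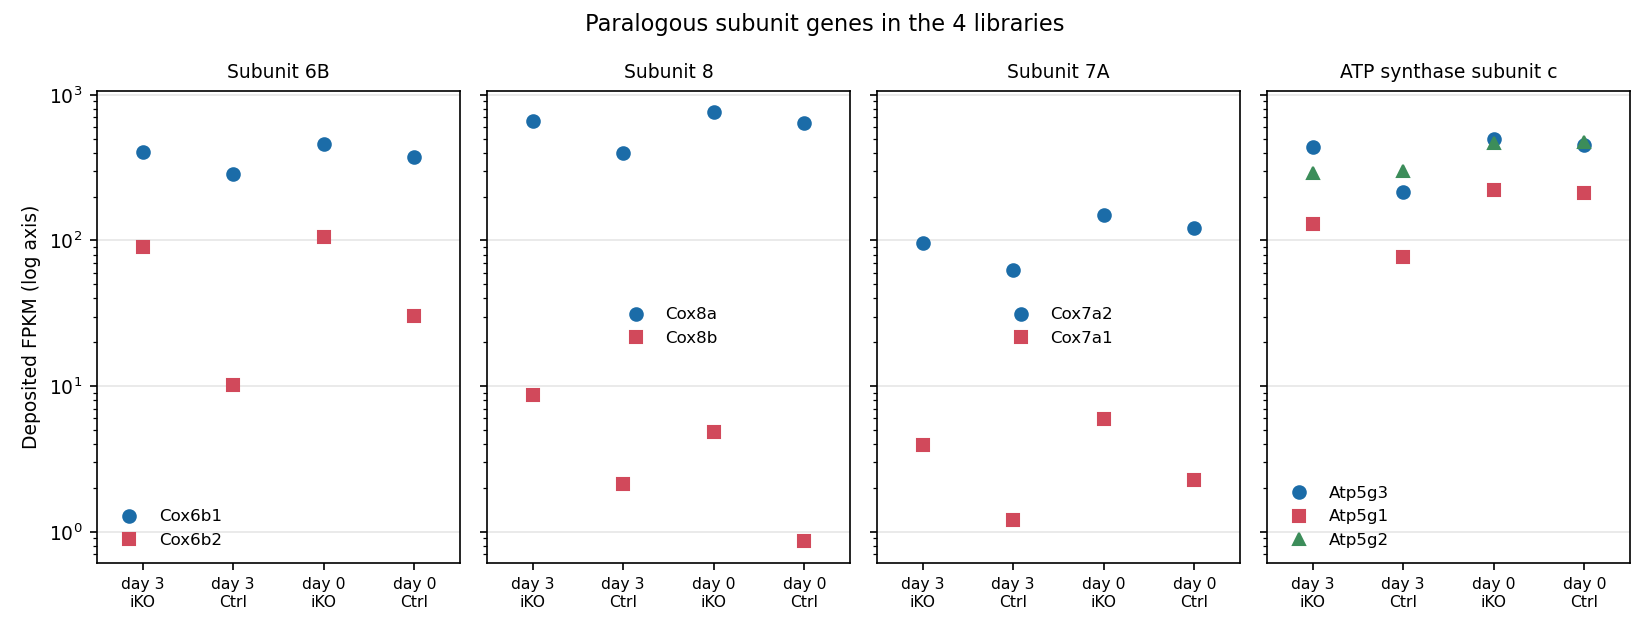
Deposited FPKM on a log axis of paralogous subunit genes in the 4 libraries (x axis), with 1 point per gene and library. Cox6b2 lies at 89.4 and 105 FPKM in the iKO libraries and at 10.2 and 30.2 FPKM in the Ctrl libraries of day 3 and day 0, and Atp5g3 leads the subunit c genes in iKO and Atp5g2 in Ctrl.

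Other tissue-restricted forms were near the detection limit. Cox8b, the striated muscle form of subunit 8, had 56 counts in iKO and 14 in Ctrl at day 3 and 33 in iKO and 6 in Ctrl at day 0, or 4.26-fold (2.34 to 8.29) and 5.13-fold (2.12 to 15) higher in iKO. Cox7a1, the muscle form of subunit 7A, had 26 counts in iKO and 8 in Ctrl at day 3 and 41 in iKO and 16 in Ctrl at day 0, or 3.46-fold (1.52 to 8.85) and 2.39-fold (1.31 to 4.56) higher. Both were higher in iKO at both days, at levels that made up at most 1.29% of the subunit 8 FPKM and 3.94% of the summed Cox7a1 and Cox7a2 FPKM. Both lay under 1 CPM in both Ctrl libraries and passed the minimum only through iKO, so these calls are no independent support. Cox6a2, the muscle form of subunit 6A and below the minimum level, had 31 counts in iKO and 5 in Ctrl at day 3 (6.61-fold higher, 2.55 to 21.8) and 10 in iKO and 15 in Ctrl at day 0. Cox4i2, a form known from lung and hypoxia, had 2 counts in each library at day 3 and 11 in iKO and 7 in Ctrl at day 0. Cox7b2 had 2 counts in iKO and 0 in Ctrl at day 3 and 1 in iKO and 0 in Ctrl at day 0. The last 2 genes give no fold at day 3, because both groups lie at or under the floor of 3 counts.

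Without the tissue-restricted forms, complex IV kept a median ratio of 0.80 at day 3. Of these 11 members, 9 were at least 1.5-fold higher, beside 15.1% of all genes. The other 2 were Cox6b1, at 1.49-fold (1.42 to 1.57), and Cox7a2l (SCAF1), a factor that joins complexes III and IV into supercomplexes and not a stoichiometric subunit. Cox7a2l had 160.2 CPM in iKO and 161.5 CPM in Ctrl at day 3 and 166.3 CPM in iKO and 158.6 CPM in Ctrl at day 0. All 4 libraries lay within a narrow range, with a fold of 0.992 at day 3 (0.944 to 1.04). Its closest relative Cox7a2, the common subunit 7A, had 73.1 CPM in iKO and 44.8 CPM in Ctrl at day 3, 1.63-fold higher in iKO (1.5 to 1.78).

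At day 0 the genotypes differed little. Of the 79 members, 59 lay above a ratio of 0 and 20 below it, beside 43.5% of all genes above it. Only Cox6b2, Cox8b and Cox7a1, 3 members, were at least 1.5-fold higher in iKO, beside 8.92% of all genes, and 0 were at least 1.5-fold lower, beside 5.51%. Cox8b and Cox7a1 passed the minimum level only through the iKO libraries, so their calls follow in part from that filter. All genes split into 1157 higher and 715 lower, or 1557 higher and 340 lower on library totals, which also gave 3 members higher and 0 lower. The number of members higher was 1 with a pseudocount or a minimum of 5 CPM. The median ratio was 0.07 for the members and -0.06 for all genes, or 0.20 and 0.06 on library totals. By complex it was 0.16 in IV, 0.10 in III, 0.09 in II, 0.06 in I and -0.01 in V, and on library totals 0.29 in IV, 0.23 in III, 0.22 in II, 0.18 in I and 0.12 in V. Beyond the restricted forms the highest ratios were those of Ndufa1, a small complex I subunit encoded on the X chromosome (0.45), Ndufv3 (0.34) and Cox6a1 (0.32). The lowest were Ndufa7 (-0.21), Atp5g2 (-0.16) and Ndufb3 (-0.15), the first and last being small complex I subunits. The summed level was 14117 CPM in iKO and 13589 CPM in Ctrl, 1.04-fold higher in iKO (1.03 to 1.04).

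Between days, the iKO members stood near their day 0 level at day 3. Day 3 against day 0, 4 of 79 were at least 1.5-fold higher, beside 21.5% of all genes, and 1 was at least 1.5-fold lower, beside 21.9%. The 4 higher members were Ndufs1 (0.75), Sdha (0.71), Sdhc (0.71) and Cox8b (0.66), and the lower member was Atp5g1 (-0.64). The median ratio was -0.04 for the members and -0.01 for all genes, and by complex 0.39 in II, 0.14 in III, -0.04 in I, -0.05 in IV and -0.08 in V. Ndufs1 was 1.69-fold higher at day 3 (1.61 to 1.76), and Atp5g1 was 1.56-fold lower (1.48 to 1.65), with 105.0 CPM at day 3 against 163.8 CPM at day 0. Atp5g2 (-0.54) and Cox7a2 (-0.49) followed as the next lowest. On library totals 1 member was at least 1.5-fold higher and 4 lower.

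The day 3 difference came with a low day 3 Ctrl library. In Ctrl, day 3 against day 0, 73 of 79 members lay below a ratio of 0, beside 51.0% of all genes, and 41 were at least 1.5-fold lower, beside 26.7%. None (0) was at least 1.5-fold higher, beside 25.8%, and 7 were at least 2-fold lower, beside 15.1%. The median ratio was -0.61 for the members and -0.02 for all genes, and by complex -0.80 in V, -0.56 in III, -0.53 in I, -0.47 in IV and -0.37 in II. Summed, Ctrl had 8744 CPM at day 3 against 13589 CPM at day 0, 1.55-fold lower (1.54 to 1.56). This comparison and the genotype comparison at day 3 share the day 3 Ctrl library, so their ratios are not independent.

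In Ctrl, 2 of the 3 subunit c genes were among the lowest members at day 3, and Atp5g2, 1.69-fold lower (1.62 to 1.76), lay near the complex V median. Atp5g1 had 58.2 CPM at day 3 against 168.9 CPM at day 0, 2.90-fold lower (2.71 to 3.10), and Atp5g3 had 145.8 CPM at day 3 against 325.5 CPM at day 0, 2.23-fold lower (2.14 to 2.33). Cox6b2 was 3.04-fold lower at day 3 (2.43 to 3.84). Ndufb6, a membrane-arm subunit of complex I, was 2.54-fold lower (2.28 to 2.84) and Cox5a, a nuclear-encoded subunit of complex IV, 2.40-fold lower (2.26 to 2.55). Ndufc2 and Cox7a2 were lower by 2.37-fold (2.26 to 2.49) and 2.06-fold (1.90 to 2.23). At the other end, Cox8b (0.39), Ndufa1 (0.17) and Ndufa3 (0.15) had the highest Ctrl ratios on the log2(CPM + 1) scale, all under 1.5-fold there. The fold of CPM for Cox8b, from few counts, was 2.36, with an interval of 0.852 to 7.49 that includes no difference.

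**Figure D3:**
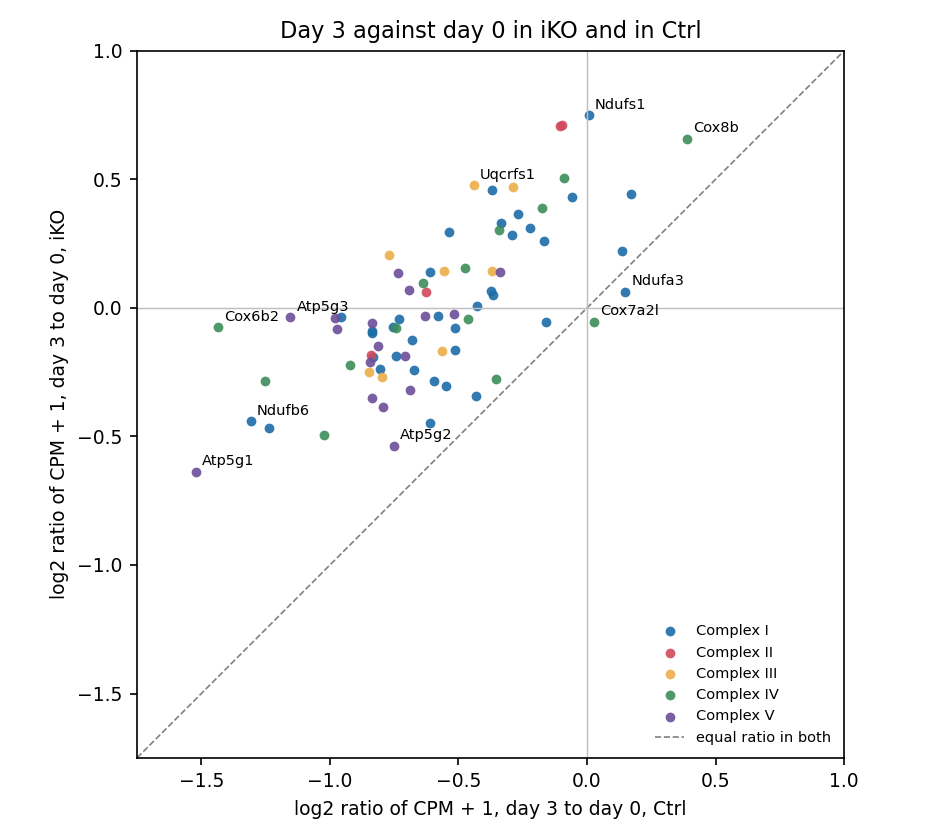
Each point is a measured member, with its log2 ratio of CPM + 1 at day 3 to day 0 in iKO on the y axis and in Ctrl on the x axis; the dashed line marks equal ratios. Of the 79 members, 77 lie above the line, and Cox7a2l is near 0 on both axes.

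The difference between the genotype ratios, day 3 minus day 0, had a median of 0.60 on the log2 scale over the members and 0.06 over all genes, and was above 0 for 77 of 79 members, beside 55.6% of all genes. It was not tested. Ranked within a gene, the day 3 Ctrl library was the lowest of the 4 libraries for 73 of 79 members, beside 24.8% of all genes. That held for all 17 members of complex V, all 8 of complex III, all 4 of complex II, 12 of 14 of complex IV and 32 of 36 of complex I. For the other 6 (Ndufa1, Ndufa3, Ndufs1, Ndufv3, Cox7a2l and Cox8b) the lowest was day 0 Ctrl. The highest library was day 3 iKO for 31 members, day 0 iKO for 32 and day 0 Ctrl for 16. The difference and the rank both use the day 3 Ctrl library, as do the day 3 genotype ratios and the Ctrl stage ratios. Their counts are therefore not independent of each other.

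**Figure D4:**
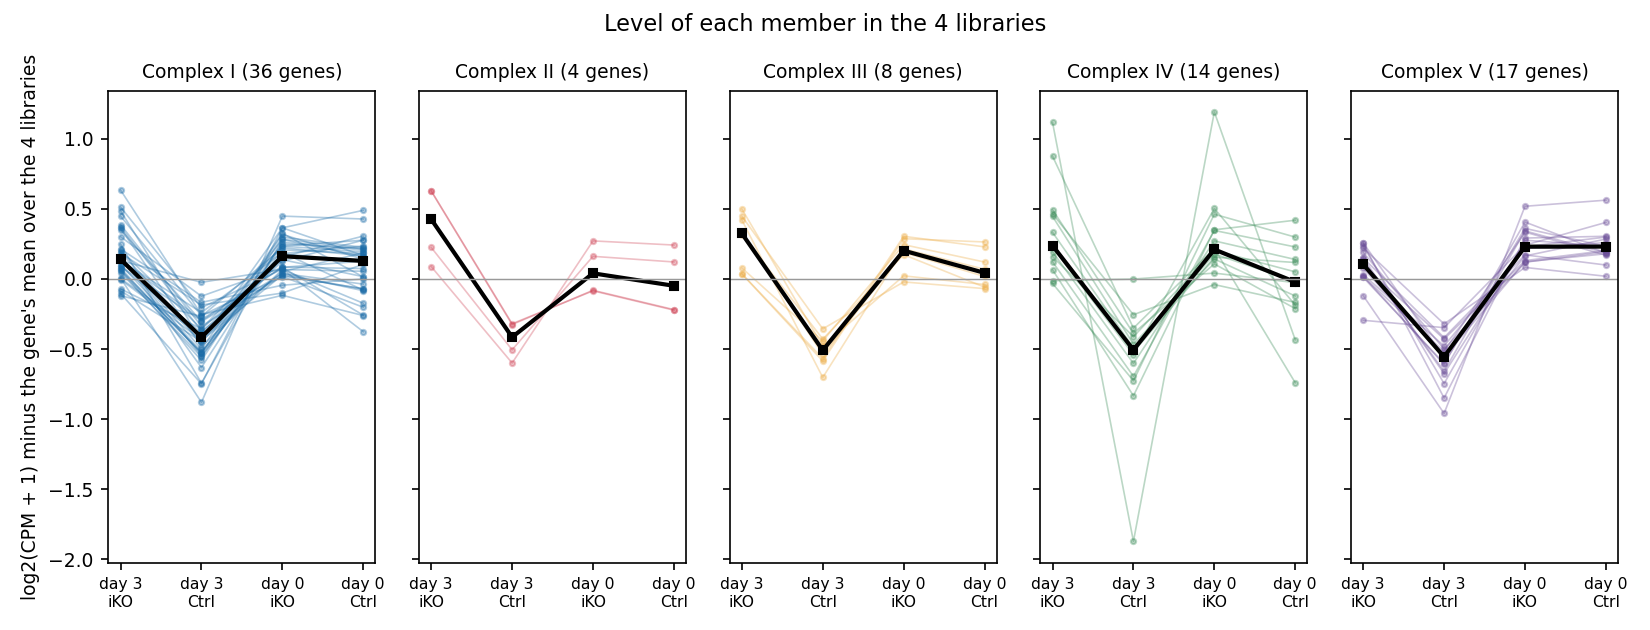
For each complex, thin lines join the values of a member, log2(CPM + 1) minus its mean over the 4 libraries (y axis), in day 3 iKO, day 3 Ctrl, day 0 iKO and day 0 Ctrl (x axis), and black squares are the medians. In every complex the median is lowest in day 3 Ctrl, the lowest library of 73 of the 79 members.

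The tricarboxylic acid cycle list and a list of carriers had medians like those of the complexes at day 3. Assembly factors, mitochondrial ribosomal proteins and import genes had lower medians. Of 16 measured genes of the tricarboxylic acid cycle and pyruvate dehydrogenase, 15 were higher in iKO by 1.5-fold or more and 0 lower. The shares of all genes, for this list and those that follow, were 15.1% higher and 11.3% lower. The median of the cycle genes was 0.82. Suclg2, a subunit of succinyl-CoA ligase, had 234.4 CPM in iKO and 98.6 CPM in Ctrl at day 3, 2.38-fold higher (2.25 to 2.51). The list of 13 genes called carriers here holds electron carriers and adenine nucleotide exchangers. It also takes in other genes, among them Slc25a3, Aifm1, Higd1a and Higd2a. In this mixed list 8 were higher and 0 lower, and the median was 0.83. Cycs, cytochrome c, had 153.9 CPM in iKO and 77.9 CPM in Ctrl at day 3 (1.98-fold higher, 1.86 to 2.10), and Cyc1, the cytochrome c1 subunit of complex III that the symbols did not take in, was 1.99-fold higher (1.90 to 2.09). Among assembly factors, 2 of 15 for complex I and 2 of 31 for complexes II to V were higher and 0 lower, with medians of 0.28 and 0.31. Mitochondrial ribosomal proteins had 4 of 78 higher and 0 lower, at a median of 0.21, and the outer membrane and import list 5 of 15 higher and 1 lower, at 0.34. The import chaperone Hspa9 was 2.06-fold higher in iKO at day 3 (2.0 to 2.12), and the lower gene was Timm50, an inner membrane import receptor, 1.69-fold lower in iKO (1.53 to 1.86).

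Regulators of mitochondrial biogenesis had a median of -0.08 at day 3, with 2 of 16 higher and 1 lower. Among all genes, 15.1% were higher and 11.3% lower, so the list as a whole did not stand out. Ppargc1a, the coactivator PGC-1alpha, had 205.5 CPM in iKO and 73.5 CPM in Ctrl at day 3, and 65.7 CPM in iKO and 33.4 CPM in Ctrl at day 0. It was higher in iKO at both days, by 2.80-fold at day 3 (2.63 to 2.97) and 1.96-fold at day 0 (1.79 to 2.16), and higher at day 3 than at day 0 in iKO (1.63) and in Ctrl (1.11) on the log2 scale. The other was Esrra, a nuclear receptor partner of PGC-1alpha, with 55.0 CPM in iKO and 28.6 CPM in Ctrl at day 3, 1.93-fold higher (1.74 to 2.14). Polg, the mitochondrial DNA polymerase, was 1.99-fold lower in iKO at day 3 (1.86 to 2.12), and Pprc1, another coactivator of the PGC-1 family, was 1.62-fold lower at day 0 (1.53 to 1.72). Cytosolic ribosomal proteins had 2 of 77 higher and 22 lower in iKO at day 3, with a median of -0.50. At day 0 the medians of these lists were 0.06 (cycle), 0.13 (carriers), -0.04 (complex I assembly), -0.03 (complex II to V assembly), -0.22 (mitochondrial ribosome), -0.26 (outer membrane and import), -0.34 (regulators) and -0.36 (cytosolic ribosome).

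**Figure D5:**
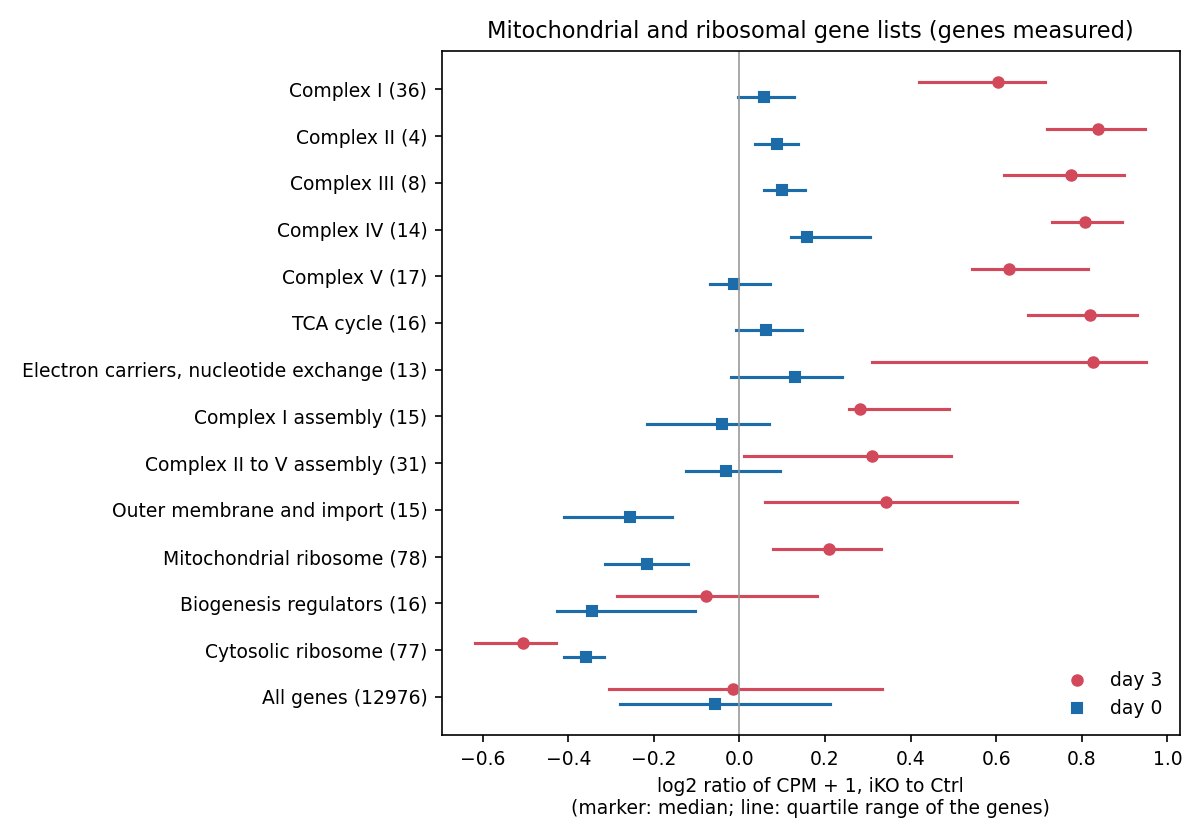
Median (marker) and quartile range (line) of the log2 ratio of CPM + 1 in iKO to Ctrl (x axis) for the 5 complexes, related lists and all genes (y axis, genes measured in brackets), at day 3 (red circles) and day 0 (blue squares). The cycle (0.82) and carrier (0.83) medians lie among those of the complexes at day 3, and the cytosolic ribosome lies at -0.50.

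Day 3 against day 0, the members had a median of -0.04 in iKO and -0.61 in Ctrl. The cycle had a median of 0.16 in iKO and -0.53 in Ctrl, and the carriers 0.28 in iKO and -0.36 in Ctrl. The mitochondrial ribosome had a median of -0.42 in iKO and -0.85 in Ctrl, and the outer membrane and import list -0.61 in iKO and -1.0 in Ctrl. The cytosolic ribosome had -1.41 in iKO and -1.28 in Ctrl. For complex I assembly the median was -0.30 in iKO and -0.59 in Ctrl, for complex II to V assembly -0.08 in iKO and -0.33 in Ctrl, and for the regulators -0.20 in iKO and -0.50 in Ctrl. All of these lists had a median below 0 in Ctrl, whereas in iKO the cycle and the carriers lay above 0 and the others below it. Differences between the lists were not tested.

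Markers of cell types differed between the same libraries. Beside the counts that follow, 15.1% of all genes were higher and 11.3% lower in iKO at day 3. At day 0 these shares were 8.92% and 5.51%. At day 3 oligodendrocyte-lineage markers had a median ratio of -2.18, with 10 of 12 at least 1.5-fold lower in iKO and 0 higher, and summed to 3614 CPM in iKO and 5247 CPM in Ctrl. Gpr17, a receptor of committed oligodendrocyte precursors, had 3.45 CPM in iKO and 375.8 CPM in Ctrl there. Neuronal markers had a median of -1.37, with 6 of 9 lower and 1 higher, and summed to 919.5 CPM in iKO and 1744 CPM in Ctrl, and Dcx, a young neuron protein, was 9.58-fold lower in iKO (8.49 to 10.9). Astrocyte markers had a median of 0.36, with 5 of 11 higher and 0 lower, and summed to 24363 CPM in iKO and 17630.1 CPM in Ctrl. Neural stem and progenitor markers, present in all 4 libraries at 4281 to 5719 CPM in sum, had a median of -0.31, with 3 of 8 higher and 2 lower. Proliferation markers had medians of -0.10 at day 3, with 0 of 12 higher and 1 lower, and -0.78 at day 0, with all 12 lower in iKO. They summed to 254 CPM in iKO and 266 CPM in Ctrl at day 3, and 2856 CPM in iKO and 4921 CPM in Ctrl at day 0. The part of these shifts in the ratios of the members was not tested.

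At day 0 astrocyte markers had a median of 0.93 (7 of 11 higher, 0 lower), neuronal markers 0.50 (4 of 9 higher, 0 lower), oligodendrocyte-lineage markers -0.28 (0 of 12 higher, 4 lower) and stem markers -0.25 (0 of 8 higher, 2 lower). The sums of 2 sets went against their medians. Neuronal markers summed to 869 CPM in iKO and 933 CPM in Ctrl, with 2 of 9 below a ratio of 0. Stem markers summed to 5719 CPM in iKO and 5579 CPM in Ctrl. Astrocyte markers summed to 3565 CPM in iKO and 2274 CPM in Ctrl, and oligodendrocyte-lineage markers to 4287 CPM in iKO and 4792 CPM in Ctrl. Markers of other cells were scarce: 9 microglial genes summed to between 1.99 and 9.08 CPM, with Aif1, C1qa and C1qb at 0 in 3 libraries, 5 endothelial genes to between 1.57 and 3.76 CPM and 7 fibroblast and mural genes to between 7.43 and 19.7 CPM.

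The authors' deposited table for day 3 holds 1774 genes, 911 of them higher in iKO, and 5 are members: Cox6b2 (log2 ratio 3.13, FDR 3.17e-157), Cox6a2 (2.64, FDR 1.93e-05), Cox8b (2.01, FDR 7.49e-07), Uqcr10 (1.05, FDR 1.07e-88) and Atp5g3 (1.03, FDR 2.69e-230). The smallest absolute log2 ratio in the authors' deposited table for day 3 is 1.0, and most members lie under it. The authors' deposited table for day 0 holds 103 genes and 0 members. With 2 libraries behind each table, the FDR takes no account of spread between cultures. Of the 82 members, 21 overlap another annotated gene, among them Sdhc, Ndufs1, Ndufa1 and Uqcr10, and Atp5j overlaps Gabpa, which encodes a subunit of the GABP factor. Overlaps with genes for snoRNA, miRNA, snRNA and tRNA were not counted. Among the 60 measured members that overlap none, 42 passed 1.5-fold in favour of iKO at day 3, beside 15.1% of all genes. Their median was 0.65.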

How the data were processed

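Total RNA of 4 cultures was sequenced from libraries of a BGI kit, per the labels' protocols, and HISAT, Bowtie2, StringTie and the mm10 build are named in the submitters' processing notes. The deposited files give each transcript an estimated count and an expression value. The authors name no unit for that value, which was taken as FPKM because it divided by the count per length and total gave a median of 0.996 to 0.998. The authors' deposited tables of changed genes give a log2 ratio and an FDR (an adjusted p-value), per the file headers, by a method not given in the sources used here.

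Both values were summed over the transcripts of a gene, and counts were rounded. RefSeq (GRCm38.p6) named 17498 gene IDs, the authors' tables named 19 more, and 104 had no symbol. Scaling was TMM (edgeR 4.0.16, R 4.3.3), with no test. Folds are ratios of CPM without the pseudocount of 1 CPM, with exact conditional (Clopper-Pearson) intervals of 95% (scipy 1.17.1, pandas 2.3.3). Since reads can be copies of a molecule, intervals and the floor of 3 counts per library cover counting error only. The code was tested on simulated counts.

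Members, lists, marker sets and the rule for named genes were chosen with earlier results of these data known. The rule takes the 2 members of each complex with the highest FPKM, the 3 highest and 3 lowest ratios of each comparison, members past 1.5-fold between genotypes, paralog sets, complex II and the 2 leading genes of each list at each day, of which the text gives a part. Ndufv3, Uqcrh, Cox7b2, Atp5j, Esrra, Gabpa and the marker genes fall outside the rule and were chosen after their values were seen. Other settings were FPKM, library totals, size factors of DESeq2 1.42.0, TMM without members and ribosomal proteins, pseudocounts of 0.1 and 5 CPM, and a minimum of 5 CPM or none.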

Additional observations from a re-analysis of the deposited data

Results flagged for a closer look

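For 3 members, day 3 stood above day 0 in iKO and below it in Ctrl, each by 1.26-fold or more and beyond the counting interval. The difference between the genotypes was not tested, having 1 library in each group. For Uqcrfs1 the log2 ratio of day 3 to day 0 was 0.48 in iKO and -0.44 in Ctrl, a difference of 0.92. For Ndufv1 it was 0.46 in iKO and -0.37 in Ctrl, a difference of 0.83. For Ndufs3, a core subunit of the ubiquinone-binding arm of complex I, it was 0.33 in iKO and -0.33 in Ctrl, a difference of 0.67.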

How the results depend on the processing

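No paired analysis was possible because there is 1 library in each group and no test was run. At day 3 the number of members at least 1.5-fold higher in iKO was between 39 and 57 over the settings tried, with 0 lower in each, and the member median between 0.57 and 0.67. DESeq2 size factors, TMM without members and ribosomal proteins, and no minimum level left each count within 1.5 times and each median close to its value. Library totals shift the median of all genes, at day 0 to 0.06 (-0.06 with TMM), in the iKO stage comparison to -0.13 (-0.01) and in the difference of genotype ratios to -0.13 (0.06), and ratios of members move with it. With library totals and with FPKM, the member median became 0.20 and 0.20 at day 0, -0.18 and -0.18 for day 3 against day 0 in iKO, and 0.39 and 0.39 for the difference. In the same order (totals, FPKM), day 0 medians were 0.18 and 0.19 in complex I, 0.22 and 0.22 in II, 0.23 and 0.23 in III, 0.29 and 0.29 in IV, and 0.12 and 0.12 in V. Day 3 against day 0 in iKO gave -0.17 and -0.18 in I, 0.25 and 0.25 in II, 0.0087 and 0.011 in III, -0.18 and -0.18 in IV, and -0.21 and -0.22 in V. Differences were 0.34 and 0.34 in I, 0.54 and 0.54 in II, 0.44 and 0.44 in III, 0.40 and 0.40 in IV, and 0.42 and 0.42 in V. At day 3 complex II had 0.76 and 0.76 and complex V 0.55 and 0.55, and complex II in the Ctrl stage comparison -0.29 with totals. For complex IV there, a pseudocount of 0.1 CPM and a minimum of 5 CPM both gave -0.56. Without members that overlap another gene, an alternative chosen after seeing the data, complex II gave 0.73 at day 3, -0.63 in the Ctrl stage comparison and 0.064 in the iKO one. At day 0, members higher numbered 1 with a pseudocount or minimum of 5 CPM. In the Ctrl stage comparison 1 was higher with a pseudocount of 0.1 CPM or FPKM. In iKO, totals gave 1 higher and 4 lower and FPKM 2 higher and 4 lower. Of all genes at day 0, a pseudocount of 5 CPM called 518 higher and 464 lower, and FPKM 264 lower. On library totals 82.1% of calls at day 0 were higher (61.8% with TMM) and 79.7% with FPKM, and in the iKO stage comparison 38.8% with FPKM (49.5%). The cause of these shifts beyond the scaling itself was not tested. Depth limits Cox7b2, Cox4i2 and Cox6a2.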
